A study of Mus musculus with 10 samples.

Results

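The genes examined here encode the respiratory chain and ATP synthase, the machinery by which mitochondria use oxygen to make ATP, and they lie on both of the cell's genomes. They were chosen by name: every gene of the mitochondrial chromosome in the count table, and the protein-coding nuclear genes named as structural subunits of complexes I to V or as somatic cytochrome c. Of the 27179 genes in the table, 15 on the mitochondrial chromosome and 88 in the nucleus were taken. The mitochondrial members were 13 mRNA genes and 2 ribosomal RNA genes. The nuclear members were 40 genes of complex I, 4 of complex II, 8 of complex III, 18 of complex IV, 17 of complex V and Cycs, the gene of cytochrome c.

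RNA was sequenced from freshly sorted immune cells of the mammary glands of virgin adult female C57BL/6 mice. The 5 populations, with 2 biological replicates and thus 2 libraries of each, comprised macrophages of the ducts and of the stroma, called ductal and stromal macrophages. The others were dendritic cells in 3 sorts: CD11b-CD103+ (CD103+ cells), CD11b-CD103- (CD103- cells) and CD11b+ (CD11b+ cells). Macrophages engulf dead cells and debris, and dendritic cells carry antigen to T cells. The labels name no transgene or treatment and do not tell whether a replicate came from 1 mouse or a pool, so p-values measure the spread between these libraries.

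Complexes I, III and IV pass electrons from NADH to oxygen and pump protons across the inner mitochondrial membrane, complex II feeds in electrons from succinate, and complex V lets protons flow back to make ATP. Subunits of complexes I, III, IV and V are encoded partly by mitochondrial DNA and partly by the nucleus. Mitochondrial DNA is copied into long transcripts from both strands, which are then divided into shorter RNAs. Complex II and cytochrome c are wholly nuclear. In myeloid cells the balance between respiration and glycolysis is known to differ with activation state.

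The deposited values were counts of reads per gene, and library totals ranged from 5636092 to 23093742. They were 5636092 and 6388106 in ductal macrophages, 23093742 and 17998986 in stromal macrophages, and 5745085 to 22519191 in dendritic cells. Depth thus differed between the 2 macrophage populations, and its part in their differences was not tested. The smallest dendritic cell total was that of CD11b+ replicate 2. Levels are given as CPM, counts scaled to a total of 1000000 by TMM factors over the 15681 genes that passed a filter on low counts. Summed markers of macrophages were 37147 and 30195 CPM in ductal macrophages, 18504 and 11889.8 CPM in stromal macrophages and 1208 to 2446 CPM in the CD11b- dendritic cells. CD11b+ cells held 23709 and 25649.9 CPM of the same markers, more than stromal macrophages, and Flt3, a growth factor receptor of dendritic cells, was 16.8 and 18.1 CPM there against 314 to 520.2 CPM in CD11b- cells. The 11 dendritic cell markers together summed to 1845 and 1294 CPM in CD11b+ cells, against 2186 to 3011 CPM in CD11b- cells, 1503 and 1061 CPM in ductal and 481 and 318 CPM in stromal macrophages. CD11b+ cells thus held markers of both cell types, and the label is used here as given. Clec9a, a defining marker of cross-presenting dendritic cells, was 160 to 270 CPM in the CD11b- cells and was counted 0 times in stromal macrophages. In bulk RNA of this kind fewer cells of a type and less RNA per cell cannot be told apart.

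Some genes of the mitochondrial genome overlap, which bears on how reads were assigned. The end of the ATP8 gene and the start of the ATP6 gene, both of complex V, share 43 bases, which is 21.1% of the 204 bases of ATP8. ND4L and ND4, both of complex I, share 7 bases, which is 2.36% of ND4L. Both stretches are shown from the GENCODE M21 transcripts of GRCm38, with the shared bases in capitals, 5′ to 3′ on the + strand of chromosome MT (chrMT:7912-7984 and chrMT:10152-10188).

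ATP8 and ATP6: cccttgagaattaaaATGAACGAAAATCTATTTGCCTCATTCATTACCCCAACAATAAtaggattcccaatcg
ND4L and ND4: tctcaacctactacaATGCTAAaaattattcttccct

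A read that falls in such a stretch belongs to either gene. ND6 lies on the opposite strand from the other mitochondrial mRNA genes. Whether the counting used strand is not stated, so sense and antisense reads cannot be told apart. Copies of mitochondrial DNA in the nucleus and processed pseudogenes of nuclear members can also divert reads, and Ndufs5-ps, a pseudogene row, had 88 to 737 counts per library.

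Nuclear respiratory genes are known for promoters without a TATA box that carry sites for the factors NRF1, GABPA and YY1. The windows searched, from RefSeq on GRCm38.p6, ran from 250 bases before to 50 bases after an annotated start of the gene. Both strands were searched, and 71 of the 88 nuclear members had a window. A match in any window of a gene was counted for that gene. The NRF1 letters GCGCATGCG stood in 9 of the 71 members (12.7%), Cycs among them, against 1.95% of all 27025 genes with a window and 3.64% of tested genes. The GABPA letters CCGGAAG stood in 17 (23.9%), against 9.93% of all and 18.1% of tested genes, and the YY1 letters AAGATGGCG in 7 (9.86%), against 1.64% and 3.12%. None of the 3 motifs holds another, and where the NRF1 letters matched on both strands 1 base apart the capitals cover both matches. At least 1 of them was present in 28 of the 71 members (39.4%) and in 12.7% of all genes with a window. The combined share among tested genes was not computed, and each motif alone was more frequent there than in all promoters. A match is a run of letters and not a shown site of binding. Stretches of 4 promoters are printed because all 4 genes were higher in CD11b+ than in CD11b- cells, 5′ to 3′ on the gene's strand with the motif in capitals.

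Cox6a1: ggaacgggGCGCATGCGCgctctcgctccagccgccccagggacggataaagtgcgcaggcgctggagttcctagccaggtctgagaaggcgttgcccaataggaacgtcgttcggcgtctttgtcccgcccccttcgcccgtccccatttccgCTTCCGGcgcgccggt
Cox6b1: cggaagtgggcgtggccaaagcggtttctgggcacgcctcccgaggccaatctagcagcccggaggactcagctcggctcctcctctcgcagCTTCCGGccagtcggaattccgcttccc
Uqcrc1: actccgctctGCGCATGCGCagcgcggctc
Ndufs7: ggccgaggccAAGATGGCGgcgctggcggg

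The Cox6a1 stretch (chr5:115348959-115349128, - strand) ends at the gene start and holds the NRF1 letters at position -162 and the GABPA letters, as CTTCCGG on the printed strand, at position -16. The Cox6b1 stretch (chr7:30626115-30626234, - strand) holds the GABPA letters at position -28. The Uqcrc1 stretch (chr9:108936668-108936697, + strand) lies after the gene start, with the NRF1 letters at position 30. The Ndufs7 stretch (chr10:80249463-80249492, + strand) has the YY1 letters at position 24 from the start of its window's annotation. That start lies downstream of the outermost start of Ndufs7, at 80249105.

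The amount of respiratory RNA from the mitochondrial genome differed widely between populations, and that from the nuclear genome differed less. Mitochondrial genes took 0.631% and 0.891% of all counts in the ductal macrophage libraries and 24.8% and 23.1% in the stromal macrophage libraries. They took 2.83% and 2.13% in CD103+ cells, 2.22% and 6.29% in CD103- cells, and 3.22% and 1.88% in CD11b+ cells. Both ductal libraries lay below the dendritic cell libraries and both stromal libraries lay far above them, with no overlap. The 2 CD103- libraries differed from each other more than any other pair of replicates, so their mean of 4.26% ± 2.87 (SD, n = 2) is loose.

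On the CPM scale the summed mitochondrial RNA was 8099.9 and 10769 in ductal macrophages and 316549 and 240317 in stromal macrophages, a ratio of means of 29.5. It was 20887 and 19022 in CD103+ cells, 17977 and 51403 in CD103- cells, and 35089 and 19344 in CD11b+ cells. The summed nuclear members were 7921 and 8262 CPM in ductal macrophages and 8454 and 7986 CPM in stromal macrophages, so the 2 macrophage populations overlapped and their means differed by a factor of 1.02. In dendritic cells the nuclear sum was 5059.8 and 6716 CPM in CD103+ cells, 6482 and 6904 CPM in CD103- cells, and 11448 and 12447 CPM in CD11b+ cells. Both CD11b+ libraries were above all 8 others in the nuclear sum, at 2.03 times the mean of CD103+ cells and 1.48 times that of ductal macrophages. The population with the most nuclear respiratory mRNA was therefore not the one with the most mitochondrial RNA.

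**Figure D1:**
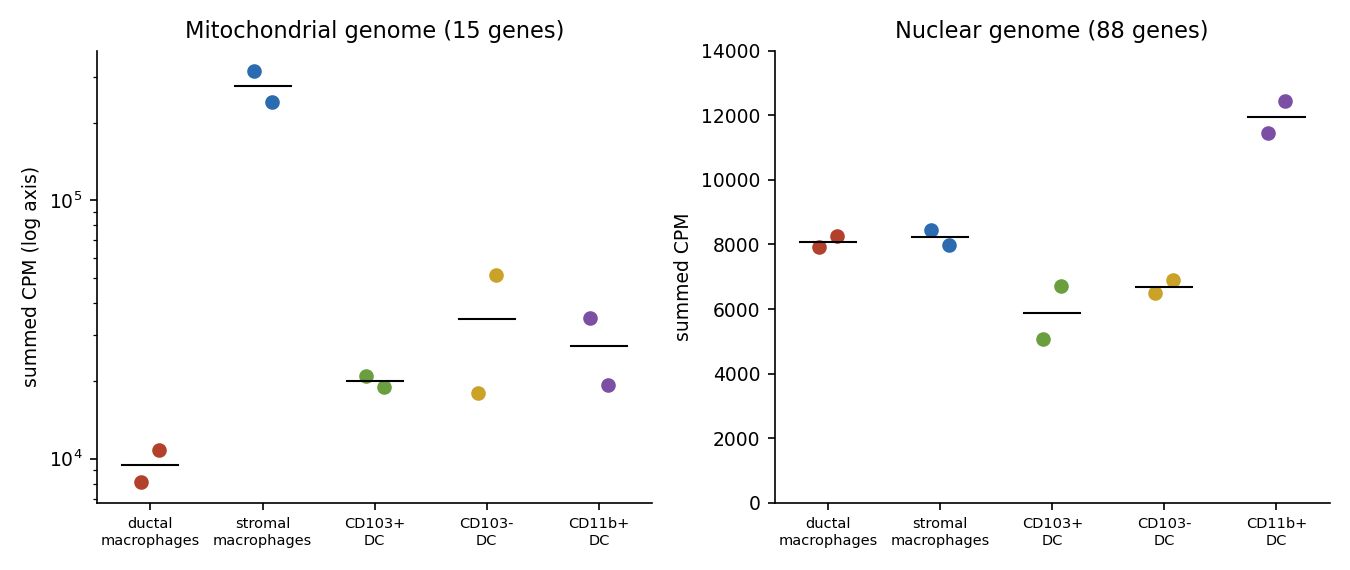
Summed CPM of the mitochondrial members (left, log axis) and of the nuclear members (right, linear axis from 0) in each of the 10 libraries, with points for libraries and bars for population means. Stromal macrophages stand highest and ductal macrophages lowest on the left, and CD11b+ cells stand highest on the right.

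The ratio of mitochondrial to nuclear respiratory mRNA counts, with ribosomal RNA left out, was 0.908 and 1.14 in ductal macrophages and 23.2 and 19.1 in stromal macrophages. It was 3.38 and 2.40 in CD103+ cells, 2.27 and 6.17 in CD103- cells, and 2.44 and 1.32 in CD11b+ cells. Ductal macrophages were thus near parity between the genomes, and their libraries did not overlap those of any other population. The make-up of the mitochondrial counts differed too: the mean share of the 2 ribosomal RNA genes was 11.8% in ductal macrophages, 16.8% to 17.8% in the 3 dendritic cell populations and 37.3% in stromal macrophages. The ratio of mt-Rnr2, the large ribosomal RNA, to COX1 was 0.217 and 0.275 in ductal and 1.05 and 1.20 in stromal macrophages, with dendritic cells between at 0.302 to 0.559.

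All 15 mitochondrial genes were lower in ductal than in stromal macrophages, with a median log2 fold change of -4.85. Among all 15681 genes tested, 14.3% were called lower in this comparison and 16.3% higher, and the median was -0.10. COX1 (chromosome MT, 5328 to 6872, coordinates on GRCm38 here and below), the catalytic core of complex IV, was at 3981 and 4605 CPM in ductal macrophages, 111396 and 70983 in stromal macrophages, 8005 and 8149 in CD103+ cells, 7051 and 20223 in CD103- cells, and 11914 and 9097 in CD11b+ cells. Both stromal libraries stood above all others and both ductal libraries below them. The ductal level differed by -4.41 ± 0.58 (SE, edgeR adjusted p = 0.00023) on the log2 scale. CYTB, the only mitochondrial subunit of complex III, was at 1302 and 1890.2 CPM in ductal against 26188 and 23994 in stromal macrophages, a difference of -3.97 ± 0.53, and ND1 of complex I was at 834 and 1441 CPM in ductal against 19991 and 20760.1 in stromal macrophages, a difference of -4.16 ± 0.58.

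The mitochondrial genes did not differ by the same factor. The furthest apart were the complex V genes ATP8 and ATP6, subunits of its membrane part. ATP6 (MT, 7927 to 8607) was at 16.6 and 42.0 CPM in ductal macrophages, 4785 and 3813 in stromal macrophages, 487 and 362 in CD103+ cells, 158 and 689 in CD103- cells, and 654 and 119 in CD11b+ cells. Its 2 ductal libraries were the lowest of the 10, and the difference from stromal macrophages was -7.19 ± 1.00 (SE, edgeR adjusted p = 0.00037). ATP8 had 2 and 5 counts in the ductal libraries against 2771 and 3550 in the stromal ones, and its fitted value of -7.94 ± 1.33 (edgeR adjusted p = 0.0012) rests on those few counts. ND4L had 1 count in each ductal library, so no fold change is given for it. The ribosomal RNAs mt-Rnr2 and mt-Rnr1 differed by -6.57 ± 0.71 and -5.82 ± 0.60, with edgeR adjusted p-values of 6.9e-05 and 5.0e-05.

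Smaller differences were measured for ND5 (-4.00 ± 0.54), ND4 (-4.28 ± 0.48) and ND6 (-4.42 ± 0.67), the last of which is read from the opposite strand. COX3 was at 149 and 187 CPM in ductal against 11009 and 9640.2 in stromal macrophages (-5.94 ± 0.86) and COX2 at 88.6 and 28.8 CPM in ductal against 2497 and 3002 in stromal macrophages (-5.55 ± 0.81), both core subunits of complex IV. ND3 was at 0.683 and 7.38 CPM in ductal macrophages and differed by -3.63 ± 0.87 (SE, edgeR adjusted p = 0.0094), but without ductal replicate 1 its adjusted p was 0.0607. The other 14 genes were called in all 15 alternative analyses. Expressed as shares of mitochondrial mRNA, COX1 took 42.6% to 56.8% in every library, while ATP6 took 0.231% and 0.445% in ductal macrophages and 0.725% to 2.85% elsewhere. COX3 took 2.07% and 1.99% in ductal macrophages and 2.75% to 7.55% elsewhere, so neither gene's ductal share overlapped the rest.

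**Figure D2:**
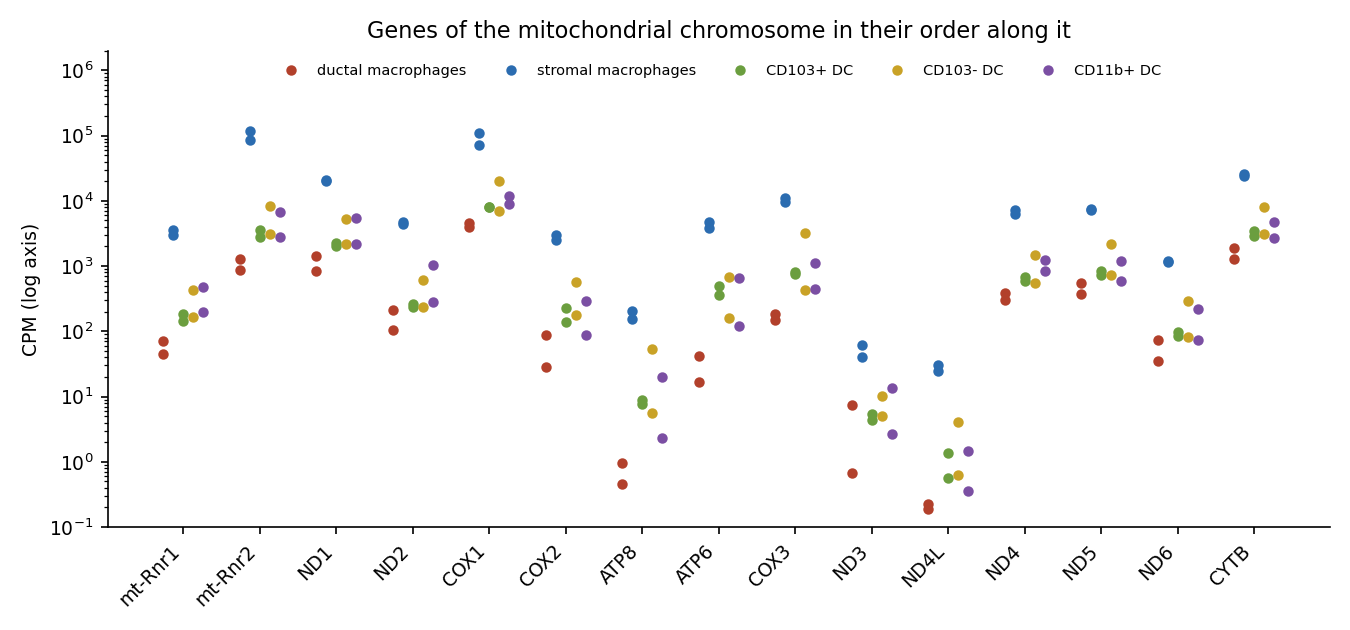
CPM (log axis) of the 15 mitochondrial genes in every library, coloured by population. The stromal libraries are the highest for each gene, and the distance down to the ductal libraries is widest for ATP8, ND4L and ATP6.

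Per kb of gene length and averaged over all libraries, COX1 was the highest mitochondrial gene at 16531 CPM per kb, followed by mt-Rnr2 at 14620.3, CYTB at 6855 and ND1 at 6519.9. The lowest were the short genes ND4L at 21.6 and ND3 at 43.7 CPM per kb. Of the 22 mitochondrial transfer RNA genes in RefSeq, 0 were in the count table, so they could not be analysed.

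Against the mean of the 3 dendritic cell populations, stromal macrophages were higher in all 15 mitochondrial genes, with a median log2 fold change of 3.32. The background was 20.3% of all genes called higher and 18.2% lower. The differences ran from 2.63 ± 0.35 for CYTB to 4.52 ± 0.42 (SE, edgeR adjusted p = 1.5e-05) for mt-Rnr2, and all 15 were called in all 15 alternatives. Both stromal libraries lay above all other 8 libraries for 15 of 15 mitochondrial genes, as they did for 13.6% of all genes.

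Ductal macrophages were lower than the dendritic cell mean in 9 of 15 mitochondrial genes, against 11.6% of all genes called lower, and the median was -1.46. The 9 were ATP8, ATP6, COX3, COX2, mt-Rnr1, mt-Rnr2, ND1, ND4 and CYTB. ATP6 differed by -3.80 ± 0.81 (SE, edgeR adjusted p = 0.005) and COX3 by -2.62 ± 0.68 (SE, edgeR adjusted p = 0.015), while CYTB differed by -1.35 ± 0.42 (edgeR adjusted p = 0.035) and COX1, which was not called, by -1.29 ± 0.44 (edgeR adjusted p = 0.053). Both ductal libraries lay below all others for 12 of the 15, as they did for 9.88% of all genes. The count of calls depended on single libraries: it was 0 without ductal replicate 1, 2 without ductal replicate 2, 5 without CD11b+ replicate 1 and 14 without CD103- replicate 1. The comparisons with dendritic cells share the same dendritic libraries.

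Signs of sample state and markers of other cell types also differed between populations, not always in the order of the mitochondrial RNA. Of 17 immediate early and heat shock genes known to respond to cell dissociation, 14 were lower in ductal than in stromal macrophages. The share of all genes called lower there was 14.3%. The 17 genes summed to 12988 and 12885 CPM in ductal macrophages, 43949 and 31329.5 CPM in stromal macrophages and 14028 to 24738 CPM in dendritic cells. The nuclear-retained RNAs Malat1 and Neat1 summed to 1608 and 2507 CPM in ductal macrophages, 3779 and 4288 CPM in stromal macrophages and 2772 to 14642 CPM in dendritic cells. Adipocyte markers summed to 44.9 and 144 CPM in ductal macrophages, to 433 and 647 CPM in stromal macrophages and to 228 to 552 CPM in CD11b- dendritic cells, whose mitochondrial share was 2.13% to 6.29%, and to 80.3 and 101 CPM in CD11b+ cells. The 6 brown adipocyte markers summed to 4.97 and 6.58 CPM in stromal macrophages, above the 1.13 to 3.49 CPM of the other 8 libraries. That list holds the members Cox7a1 (31 and 33 counts in the stromal libraries) and Cox8b (10 and 34 counts). The other libraries had 0 to 20 counts of Cox7a1 and 0 to 3 of Cox8b. This sum is therefore not independent of the members, and it was not computed without them. The 6 B cell markers summed to 1035 and 767 CPM in stromal and 342 and 348 CPM in ductal macrophages. The next highest library was CD103- replicate 2 at 747 CPM, which also had the most mitochondrial RNA of the dendritic cell libraries, and the other dendritic cell libraries held 78.6 to 333 CPM. The 8 luminal epithelial markers summed to 1031 and 2497 CPM in stromal and 228 and 442 CPM in ductal macrophages, with 458 to 1602 CPM in dendritic cells. The 6 mast cell markers summed to 184 and 157 CPM in stromal and 33.9 and 29.5 CPM in ductal macrophages, with 175 to 248 CPM in CD11b- and 19.1 and 38.4 CPM in CD11b+ cells. Summed markers of fibroblasts, endothelium and basal epithelium overlapped between the ductal and stromal libraries. The part of all these in the mitochondrial difference was not tested.

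Few nuclear subunits were called between the macrophage populations: of 84 tested, 3 were higher in ductal macrophages, 10 were lower and 71 were not called, against 16.3% and 14.3% of all genes. The share of members called was thus below the background of 30.6%. The median log2 fold change was -0.30. Of the 3 higher genes 2 were of complex II, and 7 of the 10 lower genes were of complex I, which holds 40 of the 84 tested members.

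Sdha (chromosome 13, 74322255 to 74350240), the flavoprotein that oxidises succinate, was at 548 and 410.3 CPM in ductal macrophages, 249 and 254 in stromal macrophages, 211 and 232 in CD103+ cells, 240.1 and 243 in CD103- cells, and 349.6 and 339 in CD11b+ cells. Both ductal libraries lay above all others, and the difference from stromal macrophages was 0.93 ± 0.23 (SE, edgeR adjusted p = 0.011). Sdhb, the iron-sulphur subunit, was at 256 and 257 CPM in ductal against 157 and 146 in stromal macrophages (0.76 ± 0.24, edgeR adjusted p = 0.031). The membrane anchors Sdhc and Sdhd were not called, at -0.59 ± 0.23 and 0.91 ± 0.37. Uqcrc1 (chromosome 9, 108936648 to 108949641), a core protein of complex III, was at 288 and 232 CPM in ductal against 125 and 122 in stromal macrophages and differed by 1.07 ± 0.26 (SE, edgeR adjusted p = 0.0096). Without ductal replicate 1 the adjusted p was 0.114 for Sdha, 0.124 for Sdhb and 0.0837 for Uqcrc1, and Sdhb also missed the threshold without ductal replicate 2 (0.108), stromal replicate 1 (0.0602) or stromal replicate 2 (0.119).

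Ndufb3 (chromosome 1, 58586397 to 58595964), an accessory subunit of complex I, was at 15.9 and 26.3 CPM in ductal macrophages, 63.8 and 59.2 in stromal macrophages, 22.0 and 28.1 in CD103+ cells, 28.1 and 33.3 in CD103- cells, and 57.0 and 44.0 in CD11b+ cells. Its ductal level was lower, by a log2 difference of -1.54 ± 0.29 (SE, edgeR adjusted p = 0.0026), with no overlap between the 2 macrophage populations. Ndufa5 (chromosome 6, 24518662 to 24527690), also of complex I, was at 20.5 and 26.7 CPM in ductal against 59.6 and 51.7 in stromal macrophages and differed by -1.24 ± 0.24 (SE, edgeR adjusted p = 0.0033). These 2 were called in all 15 alternatives. Uqcrb of complex III (-1.34 ± 0.30) and Cox6c of complex IV (-1.09 ± 0.28) were also lower, with adjusted p-values of 0.0066 and 0.014 by edgeR. Uqcrb missed the threshold without ductal replicate 2 (0.0542) and Cox6c without ductal replicate 1 (0.132). Uqcr10 (-0.74 ± 0.25) and Ndufb4b (-1.50 ± 0.52), at edgeR adjusted p = 0.043 and 0.049, missed it without any of 9 libraries each, and Ndufb4b shares sequence with Ndufb4 and its other copies. Of the 17 complex V subunits 0 were called by edgeR, 5 had an unadjusted p under 0.05, and DESeq2 called 3, among them Atp5h (-0.74 ± 0.26, edgeR adjusted p = 0.053). The number lower was 3 without ductal replicate 1 and 4 without stromal replicate 1, and the number higher was 0 without ductal replicate 1.

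The lower members had short genes, by a grouping chosen after the values were seen. Their median length was 517.5 bases (390 to 853), against 1656 bases (1074 to 2859) for the higher ones. Over the 84 nuclear members the log2 fold change correlated with log2 length at Pearson r = 0.49, across genes that share the same libraries. Members of at most 600 bases had a median of -0.55 and other genes of that length -0.47, and above 1000 bases the medians were 0.15 and -0.04. The part of length in these calls was not tested.

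Against the dendritic cell mean, ductal macrophages were higher in 3 of 84 nuclear members and lower in 5, against 15% and 11.6% of all genes, with a median of -0.04. Sdha differed by 0.86 ± 0.18 (SE, edgeR adjusted p = 0.0043), Ndufc2 of complex I by 0.81 ± 0.22 (SE, edgeR adjusted p = 0.017) and Sdhb by 0.61 ± 0.19. Ndufa6 of complex I was at 10.5 and 14.8 CPM in ductal against 24.0 and 22.7 in stromal macrophages and at 18.6 to 53.5 CPM in dendritic cells, a difference of -1.26 ± 0.26 (SE, edgeR adjusted p = 0.0042). Cycs was at 9.34 and 9.65 CPM in ductal macrophages, 12.6 and 17.1 in stromal macrophages, 15.9 and 14.3 in CD103+ cells, 14.6 and 24.8 in CD103- cells, and 42.4 and 21.2 in CD11b+ cells, and its ductal level, the lowest of all libraries, differed by -1.16 ± 0.35 (SE, edgeR adjusted p = 0.03). The other lower genes were Ndufb11 (-0.79 ± 0.22), Atp5h (-0.67 ± 0.22) and Uqcrfs1 (-0.66 ± 0.22). Without ductal replicate 1, 0 of the 84 were called in either direction, and the adjusted p was then 0.124 for Sdha, 0.0826 for Ndufa6 and 0.194 for Cycs.

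Stromal macrophages were higher than the dendritic cell mean in 10 of 84 nuclear members and lower in 2, against 20.3% and 18.2% of all genes, with a median of 0.19. The call that held in all 15 alternatives was Ndufa5, which differed by 1.10 ± 0.18 (SE, edgeR adjusted p = 0.00082). Uqcrb was higher by 1.08 ± 0.23 (edgeR adjusted p = 0.0034) but had an adjusted p of 0.0662 without stromal replicate 1, and Sdhc (0.74 ± 0.18) had 0.0842 without stromal replicate 2. Uqcrc1 was lower, by a log2 difference of -0.87 ± 0.22 (edgeR adjusted p = 0.0094; 0.0541 without stromal replicate 2). Atp5mpl, a small subunit of complex V, was higher by 0.68 ± 0.19 and had an adjusted p of 0.244 without stromal replicate 1. Without stromal replicate 1 the number higher was 3.

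Cox6a2 (chromosome 7, 128205435 to 128206366), the heart and skeletal muscle form of a complex IV subunit, had the largest fitted difference of the nuclear members, at 5.53 ± 1.05 (SE, edgeR adjusted p = 0.002) between stromal macrophages and dendritic cells. It had 86 and 12 counts in the stromal libraries (4.75 and 0.693 CPM) and 0 to 4 counts in each other library. Stromal replicate 1 thus held most of the counts, and without it the adjusted p was 0.0864. Skeletal muscle markers, a list that holds Cox6a2 itself, summed to 67.1 and 40.2 CPM in stromal macrophages and 3.64 to 15 CPM elsewhere. Their part in the Cox6a2 level was not tested.

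CD11b+ dendritic cells held more nuclear respiratory mRNA than the CD11b- dendritic cells across the complexes, while 0 of the mitochondrial genes were called. Of 84 nuclear members, 60 were higher, 0 were lower and 24 were not called, against 14.0% of all genes called higher and 11.0% lower. The median log2 fold change was 0.93, beside -0.07 over all genes tested. By complex the higher members were 31 of 40 in complex I, 3 of 4 in complex II, 6 of 7 tested in complex III, 9 of 15 tested in complex IV and 11 of 17 in complex V. For the count of 0 lower by edgeR, DESeq2 also gave 0, and 68 members had an unadjusted p under 0.05 in either direction. Both CD11b+ libraries stood above all 8 others for 47 of the 84, against 9.14% of all genes. Among members with a promoter window, the NRF1, GABPA and YY1 letters stood in 4, 12 and 7 of the 49 that were higher, and in 4, 4 and 0 of the 19 tested members that were not called.

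**Figure D3:**
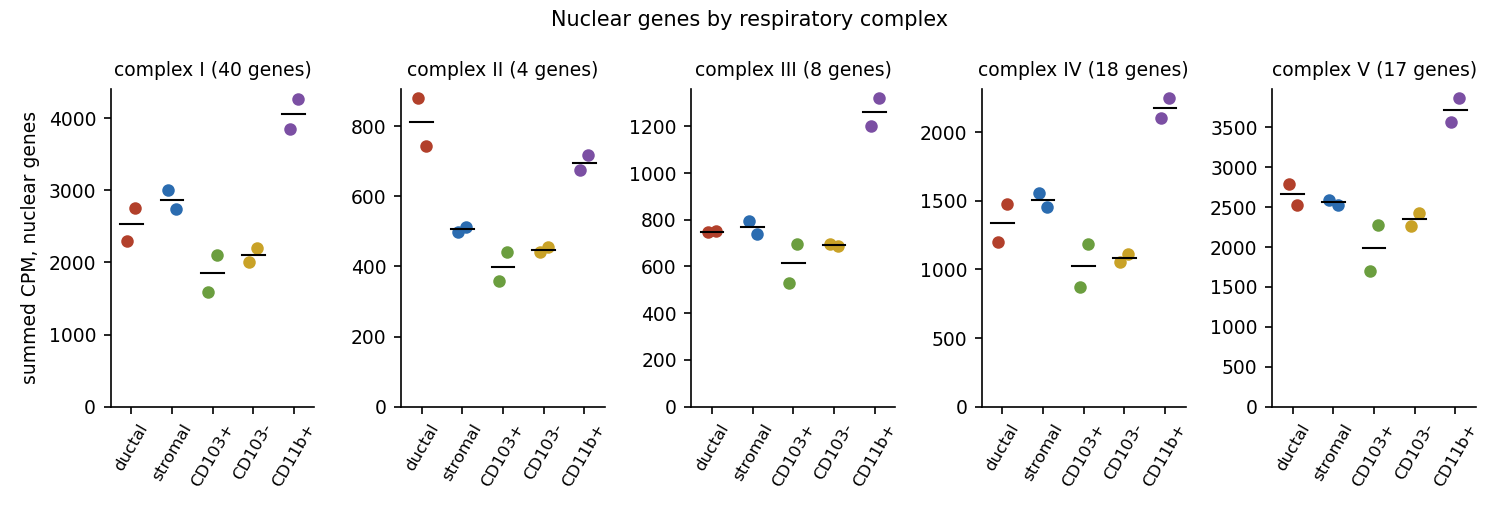
Summed CPM of the nuclear members of each complex (linear axes from 0), with populations along the horizontal axis, points for libraries and bars for population means. The CD11b+ libraries are highest for complexes I, III, IV and V, and the ductal libraries for complex II.

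Complex I sums were 3857 and 4271 CPM in CD11b+ cells and 1591 to 2200.1 CPM in CD11b- cells, without overlap. Ndufa1 (X chromosome, 37187588 to 37191238), an accessory subunit needed for assembly, was at 76.5 and 124 CPM in ductal macrophages, 122 and 76.1 in stromal macrophages, 54.0 and 66.9 in CD103+ cells, 54.5 and 79.4 in CD103- cells, and 214 and 191 in CD11b+ cells. Both CD11b+ libraries exceeded all others, by 1.67 ± 0.26 (SE, edgeR adjusted p = 0.001) against the CD11b- mean. Ndufa8 (1.56 ± 0.24) and Ndufb8 (1.47 ± 0.21) followed, the latter at 300.2 and 383 CPM in CD11b+ cells, against 94.4 and 133 in CD103+ and 129 and 137 in CD103- cells. Ndufa4, long counted with complex I and now known to sit in complex IV, was higher by 1.33 ± 0.22, whereas its paralogue Ndufa4l2 was at 0 to 4.17 CPM in every library and was not called (-1.89 ± 0.91). Ndufa1, Ndufa8, Ndufb8 and Ndufa4 were called in all 15 alternatives. Ndufs7, an iron-sulphur subunit with the YY1 letters printed above, was higher by 1.18 ± 0.22 (SE, edgeR adjusted p = 0.003) and had an adjusted p of 0.0656 without CD11b+ replicate 2. Without CD11b+ replicate 1 Ndufa4l2, with 0 counts in the remaining CD11b+ library, was the only member called lower.

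In complex II all 4 genes were measured: Sdhd was higher by 1.47 ± 0.31 (SE, edgeR adjusted p = 0.0054), Sdhc by 1.07 ± 0.20 (SE, edgeR adjusted p = 0.0025) and Sdhb by 0.78 ± 0.20 (SE, edgeR adjusted p = 0.015), while Sdha differed by 0.57 ± 0.19 with an edgeR adjusted p of 0.052. Sdhc was called in all 15 alternatives. Sdhd had an adjusted p of 0.0665 without CD11b+ replicate 2, and Sdhb 0.059 and 0.133 without CD11b+ replicates 1 and 2. The complex II sum was 675 and 717 CPM in CD11b+ cells, above the CD11b- range of 357 to 455 CPM but not above the ductal macrophages at 880.2 and 743 CPM.

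In complex III Uqcr10, a small subunit, was at 44.2 and 69.2 CPM in ductal macrophages, 96.4 and 93.3 in stromal macrophages, 46.6 and 53.9 in CD103+ cells, 54.9 and 51.1 in CD103- cells, and 124 and 142 in CD11b+ cells. It was higher in CD11b+ than in CD11b- cells by 1.37 ± 0.20 (SE, edgeR adjusted p = 0.00075), and Uqcrq by 1.35 ± 0.19, both in all 15 alternatives. Uqcrb differed by 1.20 ± 0.25 and had an adjusted p of 0.0943 without CD11b+ replicate 1. Uqcrc2, a core protein, was the tested member of this complex that was not called, at 0.09 ± 0.23. Its partner Uqcrc1, whose promoter stretch is printed above, was higher by 1.02 ± 0.21 and had an adjusted p of 0.0776 without CD11b+ replicate 2.

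In complex IV Cox5a (chromosome 9, 57517328 to 57532427), a regulatory subunit, was at 182 and 182 CPM in ductal macrophages, 209.6 and 209 in stromal macrophages, 63.2 and 109 in CD103+ cells, 84.8 and 111 in CD103- cells, and 249 and 339.8 in CD11b+ cells. The CD11b- libraries were the lowest 4 of the 10, and CD11b+ cells were higher by 1.68 ± 0.24 (SE, edgeR adjusted p = 0.00061). Cox6b1, with the GABPA letters printed above, was at 305 and 301 CPM in CD11b+ cells, against 95.9 and 127 in CD103+ and 112 and 122 in CD103- cells, a difference of 1.41 ± 0.21, and Cox8a differed by 1.35 ± 0.20. These 3 were called in all 15 alternatives. Cox7c (-0.10 ± 0.39) and Cox7a2l (0.10 ± 0.22), chosen here after their values were seen, were not called.

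In complex V Atp5mpl (chromosome 12, 111961374 to 111967009) was at 46.2 and 58.8 CPM in ductal macrophages, 86.3 and 65.2 in stromal macrophages, 27.6 and 34.3 in CD103+ cells, 30.9 and 34.8 in CD103- cells, and 98.5 and 109 in CD11b+ cells. CD11b+ cells were the highest population and CD11b- cells the lowest, with a difference of 1.70 ± 0.20 (SE, edgeR adjusted p = 0.00015). Atp5j2 (1.37 ± 0.22) and Atp5j (1.26 ± 0.22) of the membrane and stalk part were also higher in all 15 alternatives. Atp5b of the catalytic head (0.35 ± 0.25) and Atp5c1 of the central stalk (0.43 ± 0.23), again chosen after their values were seen, were not called. Cycs was at 42.4 and 21.2 CPM in CD11b+ cells, and its difference of 0.89 ± 0.32 had an edgeR adjusted p of 0.063.

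The count of higher members fell to 36 without CD11b+ replicate 1 and to 29 without CD11b+ replicate 2, and 23 were called in all 15 alternatives. By gene length, in classes chosen after the values were seen, among genes of at most 600 bases, 26 of 36 members and 18.2% of other genes were higher, and above 1000 bases 18 of 24 members and 12.6% of other genes were. T cell markers summed to 203 and 241 CPM in CD11b+ cells and 2.28 to 22.6 CPM elsewhere, and the summed macrophage markers given above were also larger there than in CD11b- cells. The part of these in the nuclear difference was not tested.

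Of the mitochondrial genes, 0 of 15 were called between CD11b+ and CD11b- cells by edgeR or by DESeq2, and 0 had an unadjusted p under 0.05. COX1 was at 11914 and 9097 CPM in CD11b+ cells, against 8005 and 8149 in CD103+ and 7051 and 20223 in CD103- cells, so the CD11b+ libraries fell within the CD11b- range. CD103- replicate 2 had the highest level of COX1, ATP6, COX3 and CYTB among the 6 dendritic cell libraries, and CD11b+ replicate 1 had the highest ND1.

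**Figure D4:**
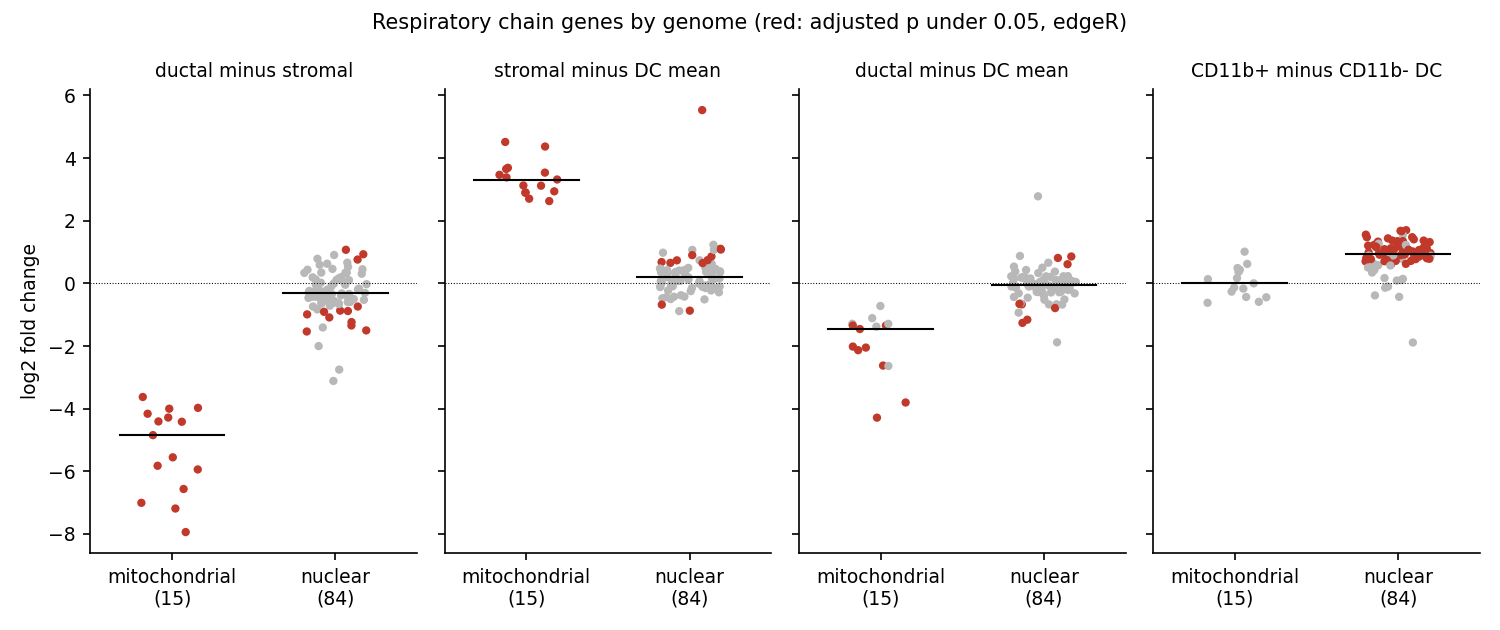
Log2 fold changes of every tested member in 4 comparisons, mitochondrial and nuclear members side by side, with a point for each gene, called genes in red and bars for medians. The mitochondrial points lie far below 0 for ductal against stromal macrophages, and the nuclear points lie mostly above 0 for CD11b+ against CD11b- cells.

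Between CD103+ and CD103- dendritic cells, 0 of 15 mitochondrial and 0 of 84 nuclear members were called, against 0.0319% of all genes (5 genes) by edgeR. DESeq2 also called 0 members, and 0 had an unadjusted p under 0.05, beside 1000 genes of all those tested. The medians were -0.84 for mitochondrial and -0.16 for nuclear members. The COX1 levels given above for the 2 CD103- libraries lay on either side of those of the CD103+ libraries.

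Tissue-specific isoforms were at low levels in all populations. Cox4i1, the general form of complex IV subunit 4, was at 230 to 494 CPM, whereas Cox4i2, its lung and hypoxia form, was at 0.198 to 1.51 CPM. Cox6a1 was at 143 to 354 CPM, and Cox6b2, a testis form, at 0.883 to 3.71 CPM. Cox7a1, the muscle form, was at 0 to 1.91 CPM and the liver form Cox7a2 at 13.8 to 32.6 CPM. Among the 3 genes for the c-ring of ATP synthase, Atp5g3 was at 179 to 534 CPM, Atp5g1 at 16.9 to 42.7 CPM and Atp5g2 at 0.718 to 1.94 CPM. In CD11b+ cells Cox4i1 (0.78 ± 0.20), Cox6a1 (0.99 ± 0.20), Cox7a2 (0.98 ± 0.21), Atp5g1 (0.91 ± 0.24) and Atp5g3 (1.08 ± 0.22) were higher than in CD11b- cells, and Cox4i2, Cox6b2, Cox7a1 and Atp5g2 were not called. All 5 of these calls missed the threshold without CD11b+ replicate 2, at adjusted p-values of 0.123, 0.0647, 0.0545, 0.231 and 0.0761.

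Per kb of gene length the highest nuclear members over all libraries were Cox4i1 at 497 CPM per kb, Atp5g3 at 432 and Cox6a1 at 381. The lowest tested were Cox6a2 at 0.988, Cox4i2 at 1.17 and Ndufa4l2 at 1.61. On the same scale the level of COX1 was far above that of Cox4i1, its nuclear partner in complex IV. The 4 members that did not pass the filter were Cox8c, Cox7b2, Cox8b and Uqcr11. Cox8c and Cox7b2 had 0 counts in all libraries, Cox8b was at 0 to 1.96 CPM, and Uqcr11 had 1 count in all. Uqcr10 and Uqcrq, also of complex III, had 10982 and 12278 counts over all libraries. Why Uqcr11 was hardly counted was not tested.

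By their medians, members of the same genome correlated more across the 10 libraries than members of different genomes. As a description over libraries of 5 populations, the median Pearson r of log2 CPM was 0.96 over 78 pairs of mitochondrial mRNA genes (0.80 to 0.995). It was 0.66 over 3486 pairs of nuclear members, which ranged widely, from -0.90 to 0.996. Over 1092 mixed pairs it was 0.21 (-0.71 to 0.88). The population with the highest mean was stromal macrophages for 15 of 15 mitochondrial genes and CD11b+ cells for 62 of 84 nuclear genes. The lowest was ductal macrophages for 15 of 15 and CD103+ cells for 55 of 84. Both CD103+ libraries lay below all others for 12 of 84 nuclear members, against 2.9% of all genes.

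Outside the members, 5300 genes with a mean of at least 30 CPM were compared with the mean log2 CPM of the 13 mitochondrial mRNA genes. The most alike were Atf2 (r = 0.96), Ube2w (0.94), Cmpk2 (0.93), Fh1 (0.93) and Trim30a (0.92). These r values are over 10 libraries and largely follow the stromal macrophages. Fh1, the fumarase of the tricarboxylic acid cycle, averaged 30.5 ± 4.48 CPM (SD, n = 2) in ductal macrophages, below the 178 ± 20.1 CPM (SD, n = 2) of the stromal population. Cmpk2, a mitochondrial nucleotide kinase, was at 7.58 ± 1.05 CPM and 99.6 ± 11.1 CPM in the same order.

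Lists of other mitochondrial genes are read against the same background, 16.3% of all genes called higher and 14.3% lower in ductal than in stromal macrophages. Of 16 genes of mitochondrial transcription and replication, 4 were higher and 0 lower, while 9 of the 16 had a log2 fold change below 0 and the list median was -0.32. The number higher was 2 without ductal replicate 1, ductal replicate 2 or stromal replicate 2. Tefm, the elongation factor of mitochondrial transcription, was higher by 2.09 ± 0.41 (SE, edgeR adjusted p = 0.0031) in all 15 alternatives. Polg, the DNA polymerase, was higher by 1.40 ± 0.37 and Polrmt, the RNA polymerase, by 1.33 ± 0.35. Polg missed the threshold without ductal replicate 2 (0.0805) or stromal replicate 2 (0.0615), and Polrmt without ductal replicate 1 (0.0966). Tfam, Nrf1 and Gabpa, known activators of mitochondrial and nuclear respiratory genes, were not called in any comparison.

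Of 19 genes of mitochondrial RNA processing and decay, 3 were higher in ductal macrophages and 2 lower (median 0.03), shares at or below the background. Without ductal replicate 1 these counts were 1 and 0. Fastkd3 was higher by 2.09 ± 0.39 (SE, edgeR adjusted p = 0.0023). Lrpprc, which stabilises mitochondrial mRNAs together with Slirp, was higher by 1.21 ± 0.28 while Slirp was lower, by a log2 difference of -1.21 ± 0.28. Without ductal replicate 1 their adjusted p-values were 0.071 and 0.0869, and Slirp had 0.055 without stromal replicate 1.

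Assembly factors were lower in ductal macrophages in 10 of 44 genes (median -0.23), against 14.3% of all genes, among them Tmem126b of complex I assembly (-2.04 ± 0.37, edgeR adjusted p = 0.0021) and Sdhaf4 of complex II assembly (-2.0 ± 0.36, edgeR adjusted p = 0.002). The mitochondrial ribosome had 14 of 78 genes lower (median -0.33), led by Mrpl33 (-1.81 ± 0.27). Without ductal replicate 1 these counts were 5 and 4, and the ribosome count was 8 without ductal replicate 2 or stromal replicate 1. In the tricarboxylic acid cycle 4 of 18 genes were higher and 2 lower (median -0.04), and 2 and 1 without ductal replicate 1. The counts for the ribosome and the cycle lay near the background of 14.3% lower and 16.3% higher. Of the cycle genes Fh1 was lower, by a log2 difference of -2.55 ± 0.26 (SE, edgeR adjusted p = 4.8e-05), and Dlst and Ogdh, both of the oxoglutarate dehydrogenase complex, were higher by 1.24 ± 0.23 and 1.23 ± 0.24. Ucp2, a carrier of the inner membrane, was higher in ductal macrophages by 2.01 ± 0.31 (SE, edgeR adjusted p = 0.00069). Against dendritic cells, stromal macrophages were higher in Idh2 (2.16 ± 0.18, edgeR adjusted p = 8.3e-06) and Fh1 (1.63 ± 0.18) and lower in Polg (-2.0 ± 0.32), Elac2 (-2.58 ± 0.45) and Tbrg4 (-1.67 ± 0.25), all in each of the 15 alternatives.

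In CD11b+ cells the same lists are read against 14.0% of all genes called higher than in CD11b- cells. Of 78 mitochondrial ribosome genes 27 were higher (median 0.56), with Mrps6 at 2.86 ± 0.19 (SE, edgeR adjusted p = 2.7e-06) and Mrpl33 at 1.98 ± 0.22. Of 19 genes of the outer membrane and import 10 were higher (median 0.70), led by Tspo, a cholesterol-binding protein (1.99 ± 0.26, edgeR adjusted p = 0.00034). Of 44 assembly factors 11 were higher (median 0.44), with Uqcc2 of complex III assembly at 1.99 ± 0.20 (SE, edgeR adjusted p = 4.6e-05). The tricarboxylic acid cycle had 4 of 18 higher (median 0.44), with Mdh2 at 1.21 ± 0.19 and Pdha1 at 1.02 ± 0.20. Without CD11b+ replicate 1 these 4 counts were 17, 3, 5 and 2, and without CD11b+ replicate 2 they were 8, 3, 6 and 2. The import count was 4 and the cycle count 2 without CD103+ replicate 1 or CD103- replicate 1, and the assembly count was 7 without CD103+ replicate 1, CD103+ replicate 2 or CD103- replicate 1. Of 80 cytosolic ribosome genes 1 was higher and 1 lower (median 0.08).

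Among 12 tested regulators of respiratory genes 4 were higher in CD11b+ cells, against the same 14.0% of all genes, and 2 were without CD11b+ replicate 1. Ppargc1b, a coactivator that drives mitochondrial gene expression, was higher by 3.09 ± 0.42 (SE, edgeR adjusted p = 0.00041) in all 15 alternatives. Pparg (1.50 ± 0.37), Esrra (1.14 ± 0.30) and Hif1a (1.06 ± 0.21) were also higher, and each missed the threshold without 1 CD11b+ library: Pparg at 0.138 and Hif1a at 0.1 without replicate 1, and Esrra at 0.301 without replicate 2. Of the 19 RNA processing genes 4 were higher, with Rexo2 at 1.47 ± 0.19 and Slirp at 1.44 ± 0.23, and Elac2, which trims transfer RNA ends, was lower, by a log2 difference of -2.66 ± 0.46 (SE, edgeR adjusted p = 0.0019).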

How the data were processed

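Per the labels' protocols, cells were used straight after sorting, their RNA was isolated with RNeasy Plus, TruSeq RNA libraries were prepared, and a NextSeq gave 80-base reads from both ends. The deposited gene counts are unnormalised whole numbers, made by the authors with featureCounts on mm10, per the submitters' processing notes. Which aligner and annotation were used, and whether strand was, is not stated. The counts in each library's own file equalled those in the joint table. Genes were given by Entrez ID, of which 25275 had RefSeq names, 18 had GENCODE names and 1886 had none. Library totals ranged from 5636092 to 23093742.

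Counts were analysed with edgeR 4.0.16 in R 4.3.3, with DESeq2 1.42.0 as an alternative, and tables were made with pandas 2.3.3 in Python 3.11.15. Genes were kept by filterByExpr (minimum count 10, minimum total 15), which left 15681, including all 15 mitochondrial and 84 nuclear members. CPM values use TMM-adjusted totals of these genes. A quasi-likelihood model over all 10 libraries gave 5 residual degrees of freedom, and the common biological coefficient of variation was 0.333. Benjamini-Hochberg adjustment ran over the whole set of tested genes, genes with an adjusted p under 0.05 count as called, and standard errors are the log2 fold change over the root of the F statistic. A mean of populations weights each equally. The procedure was tested on simulated data. Shares of mitochondrial counts, like CPM values, carry counting error: their Wilson 95% intervals were narrow beside the spread between replicates, and cover counting error only.

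The members, gene lists and tests were chosen with earlier results of these data known. Named nuclear members were, per comparison and complex, the up to 3 called genes that differed most on the log2 scale in each direction, together with sets of isoforms, all Sdh genes and Cycs, and up to 4 called genes per list. Genes outside this rule are said to be chosen after their values were seen, or carry a printed promoter. The 15 alternatives were DESeq2 size factors, the DESeq2 test, scaling on genes outside the mitochondrial chromosome, no low-count filter, the replicate number as a block, and each library left out in turn. Same-numbered libraries did not deviate together (r from -0.18 to 0.18 over pairs of populations), so the numbers were not taken as pairs.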

Additional observations from a re-analysis of the deposited data

How the results depend on the processing

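No called member or level changed direction under any alternative, apart from the near-0 ratio given below for ductal macrophages. With each library left out in turn, the mitochondrial genes lower in ductal macrophages than in dendritic cells numbered 0 to 14, against 9, and without a low-count filter 14. For nuclear members the ranges without 1 library were 0 to 3 higher and 3 to 15 lower in ductal against stromal macrophages, 0 to 3 higher and 0 to 5 lower in ductal macrophages against dendritic cells, 3 to 14 higher and 0 to 2 lower in stromal macrophages against dendritic cells, and 29 to 61 higher and 0 to 1 lower in CD11b+ against CD11b- cells. By the DESeq2 test 5 nuclear members were higher in ductal than in stromal macrophages and 4 were lower in stromal macrophages than in dendritic cells. With sums per kb the log2 ratio of mitochondrial to nuclear mRNA moved from 0.03 to -0.50 in ductal macrophages, from 4.39 to 3.76 in stromal macrophages and from 1.51 to 0.99 in CD103+ cells. Without ribosomal RNA genes the mitochondrial share of stromal macrophages was 15%. With scaling on genes outside the mitochondrial chromosome the nuclear sum was 8632 CPM in ductal macrophages, 8847 CPM in stromal macrophages and 7316 CPM in CD103- cells. The cause of these changes was not tested. With the replicate number as a replicate block 59 nuclear members were higher in CD11b+ cells, against 60. The block moved the count of mitochondrial genes lower in ductal macrophages than in dendritic cells from 9 to 6. Same-numbered libraries correlated at -0.18 to 0.18 in their deviations. Such weak correlations cannot show whether same-numbered libraries share an origin, which the labels do not tell. No scaling moved the median of all genes by more than 0.058. With 2 libraries a population, calls that 1 library decides rest on the other alone, and a lone library is assumed to vary like the other populations.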
